A study of Mus musculus with 6 samples.

Results

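Transcripts of 9 genes of cholesterol synthesis were examined in lung innate lymphoid cells (ILCs) of wild-type (WT) and Rbm3 knockout (RBM3KO) mice. They are 7 enzymes (Hmgcs1, Mvd, Idi1, Fdps, Fdft1, Sqle and Cyp51) and 2 regulators (Insig1 and Srebf2), chosen by symbol, and all 9 were found among the 14416 genes of the count table. ILCs are lymphocytes without rearranged antigen receptors. Lin-Thy1.2+ ILCs had been sorted from lung tissue of C57BL/6J mice, with 3 samples labelled WT and 3 labelled RBM3KO, and profiled by Smart-seq2 RNA-seq of polyA RNA. All 6 samples came from mice given 25 µg of the mould allergen Alternaria alternata 3 times over 7 days, so no unchallenged mice enter the comparison. How the Rbm3 allele was made, the ages of the mice, the lineage antibodies of the sort and whether each sample is 1 animal are not stated in the labels.

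Cells make cholesterol from acetyl-CoA. The mevalonate arm builds isoprene units and joins them into farnesyl diphosphate, which also feeds protein prenylation, and the sterol arm turns farnesyl diphosphate into squalene, lanosterol and cholesterol. The transcription factor SREBP2, the product of Srebf2, drives most of these enzymes and is itself held in the endoplasmic reticulum with its escort SCAP by INSIG proteins when sterols are plentiful. Lymphocytes are known to raise this pathway when they are activated and divide.

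Each library was checked first. Rbm3 had between 3649 and 7473 counts in the WT libraries and between 235 and 406 in the RBM3KO libraries, which matched every label. Library totals ran from 7498247 counts in RBM3KO replicate 3 to 25068137 in WT replicate 3. The ILC genes Thy1, Id2, Gata3 and Il7r were present in every library. The summed level of 10 ILC markers was 4954 to 5986 CPM (counts scaled to the library total) in WT and 6325 to 6956 CPM in RBM3KO. Id2 and Areg were the largest terms of this sum, and 0 of the 10 were called by edgeR's adjusted p. Of 20 proliferation genes, 15 were lower in RBM3KO by edgeR's adjusted p, where 1% of all genes tested were. The summed level of the 20 was 3465 to 4195 CPM in WT and 2031 to 2126 CPM in RBM3KO. The summed level of 7 B cell markers was 65.1 to 90.7 CPM in WT and 39.2 to 42.6 CPM in RBM3KO. That of 8 T cell markers, mostly Cd3g, was 181 to 289 CPM in WT and 190 to 353 CPM in RBM3KO. That of 14 myeloid markers, mostly Cd74 and MHC class II genes, was 3157 to 4372 CPM in WT and 2374 to 2857 CPM in RBM3KO, while Csf1r and Adgre1, which define macrophages, were at 0 in 3 of the 6 libraries each and Marco was at 0 in all but RBM3KO replicate 3. In the same list Lyz2 stood at 14.9, 44.4 and 135 CPM in WT and 3.07, 37.6 and 61.4 CPM in RBM3KO, Cd68 and Itgax were present in all 3 WT libraries, and Tyrobp was lower in RBM3KO (-1.34 on the log2 scale, SE 0.24, edgeR adjusted p = 0.0292). The part of such cells in the levels of the 9 genes was not tested.

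The promoters of 4 of the genes are shown as examples of the letters through which SREBP2 and its partner NF-Y are known to act. Hmgcs1, Srebf2 and Insig1 are the genes with a sterol element core or an E-box, and Mvd stands for those with NF-Y boxes alone (Mvd, Idi1 and Cyp51). The sequences are from RefSeq (GRCm38.p6, the assembly of mm10), run 5′ to 3′ up to the last base before the start of transcription, and end earlier for Insig1 (by 49 bases) and Srebf2 (by 88 bases), where the GENCODE gene begins further upstream. Capitals mark TCACCCCA (a core of the sterol regulatory element bound by SREBP), CACGTG (an E-box) and CCAAT (the NF-Y box), each searched on both strands, so that a box on the other strand reads ATTGG. None of the marked runs overlap.
Hmgcs1, chr13:119690101-119690350, plus strand: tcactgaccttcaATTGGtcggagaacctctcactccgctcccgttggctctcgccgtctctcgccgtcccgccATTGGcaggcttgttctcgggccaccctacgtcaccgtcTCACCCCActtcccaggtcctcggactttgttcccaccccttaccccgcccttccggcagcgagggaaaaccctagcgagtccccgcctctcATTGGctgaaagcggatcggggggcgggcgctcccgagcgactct
Mvd, chr8:122443423-122443672, minus strand: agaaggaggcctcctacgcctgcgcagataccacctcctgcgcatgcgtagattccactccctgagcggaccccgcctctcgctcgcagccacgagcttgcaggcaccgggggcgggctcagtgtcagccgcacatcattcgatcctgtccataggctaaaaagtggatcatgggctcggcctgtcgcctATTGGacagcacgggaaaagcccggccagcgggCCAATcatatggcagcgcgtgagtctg
Insig1, chr5:28071162-28071362, plus strand: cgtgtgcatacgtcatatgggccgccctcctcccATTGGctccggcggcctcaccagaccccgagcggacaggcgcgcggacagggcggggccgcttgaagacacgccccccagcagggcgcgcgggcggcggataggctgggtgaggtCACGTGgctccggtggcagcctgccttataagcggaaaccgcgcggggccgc
Srebf2, chr15:82147019-82147180, plus strand: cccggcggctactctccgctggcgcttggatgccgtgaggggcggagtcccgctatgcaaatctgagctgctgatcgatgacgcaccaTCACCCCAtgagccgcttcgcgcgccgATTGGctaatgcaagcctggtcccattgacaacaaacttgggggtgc

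Of the 9 genes, 6 matched the promoter table (Hmgcs1, Mvd, Idi1, Cyp51, Insig1 and Srebf2). All 6 held the NF-Y box within the 250 bases before the start, where 33.8% of all 32851 promoter windows of that length held it. The sterol element core was found in Hmgcs1, 137 bases before the start, and in Srebf2, 162 bases before the start, and in 1.34% of all windows. The E-box was found in Insig1, 101 bases before the start, and in 6.02% of all windows. These distances run to the RefSeq start, which lies 88 bases past the printed end for Srebf2 and 49 bases past it for Insig1. Of 13 other synthesis enzymes in the promoter table, 11 held the NF-Y box, 3 the E-box and 0 the sterol element core. The letters were picked after the promoters had been looked at, a match is a description of sequence, and no binding was measured in these samples.

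No gene of the 9 differed between the genotypes at an adjusted p under 0.05. The test was edgeR's quasi-likelihood fit on 11382 genes, of which 1.25% were called, 0.246% as higher and 1% as lower in RBM3KO, Rbm3 among the latter. At an unadjusted p under 0.05 the count was also 0 of 9, against 12.3% of all genes tested. DESeq2, which called 3.64% of all genes tested, called 0 of 9 as well. The median log2 fold change (RBM3KO minus WT) of the 9 was 0.06, beside 0.01 for all genes tested, with 5 estimates above 0 and 4 below. Levels below are CPM scaled by TMM, and each log2 fold change is given with its standard error (SE) and its unadjusted 95% interval. In sorted bulk samples, fewer cells that express a gene and less RNA per cell cannot be told apart.

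**Figure D1:**
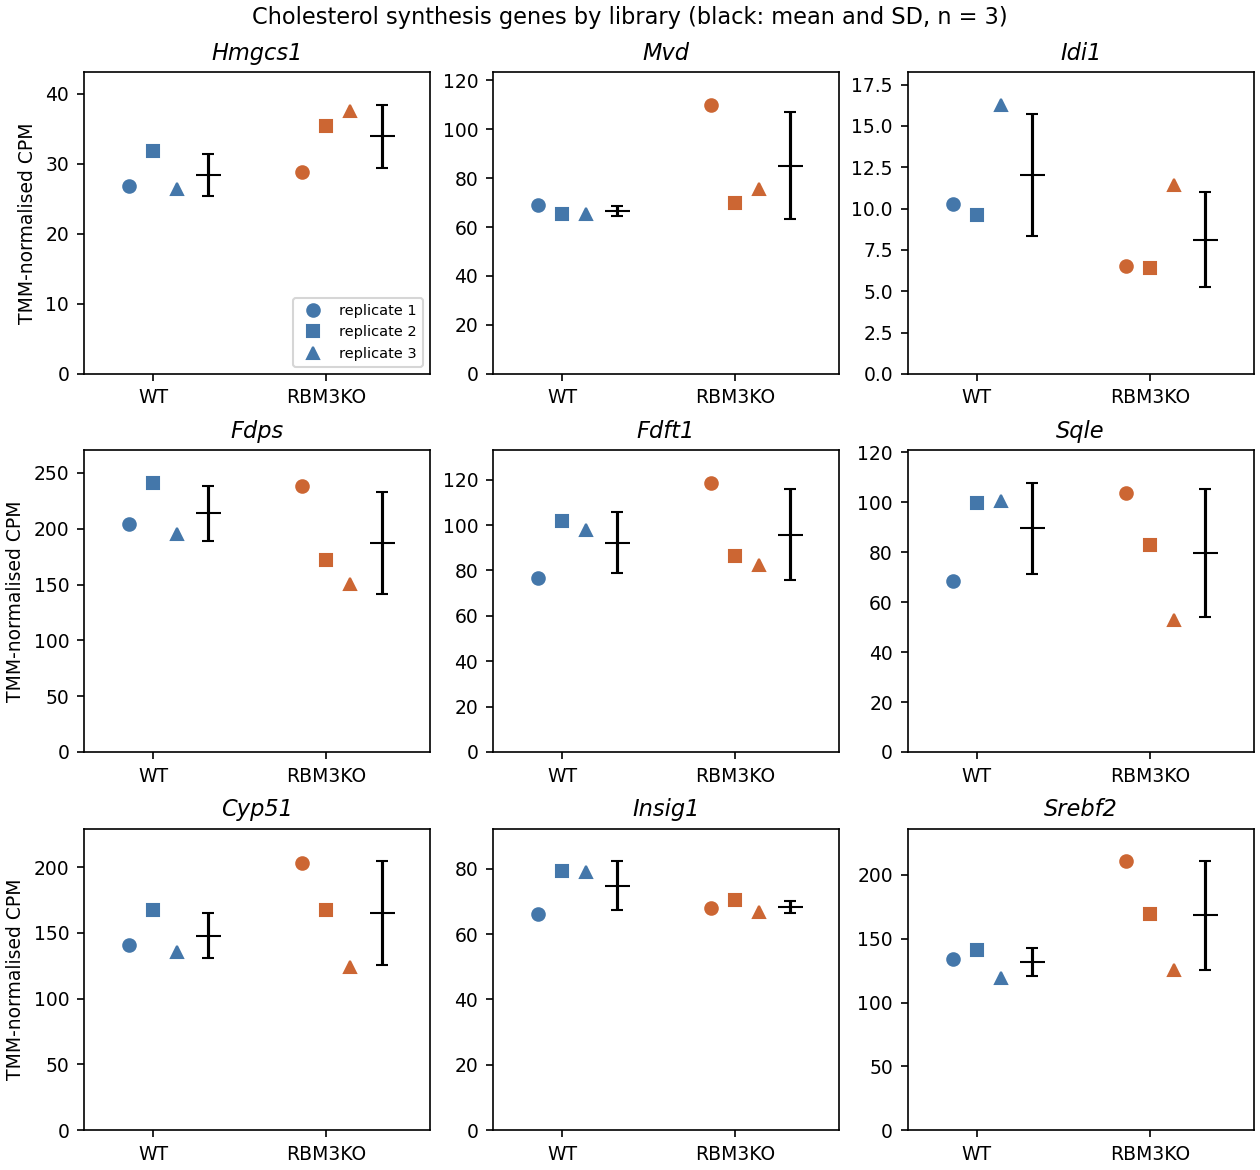
TMM-normalised CPM (vertical axes, from 0) of the 9 genes in the 3 WT (blue) and 3 RBM3KO (orange) libraries, with symbols for the replicate number and the mean and SD (n = 3) in black. The groups overlap for 8 genes, and for Mvd the lowest RBM3KO library (69.6 CPM) lies just above the highest WT library (69.0 CPM).

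Srebf2 (chromosome 15, 82147181 to 82205379, mm10), which encodes the transcription factor SREBP2 that switches on the pathway, stood at 134, 141 and 120 CPM in WT replicates 1, 2 and 3 and at 211, 169 and 125 CPM in RBM3KO replicates 1, 2 and 3. RBM3KO replicates 1 and 2 lay above all WT libraries, and replicate 3 lay inside their range. The means were 132 ± 10.9 and 168 ± 42.7 CPM (SD, n = 3), with a log2 fold change of 0.36 (SE 0.17, interval -0.02 to 0.74, edgeR adjusted p = 0.434). This was the smallest p of the 9 genes (unadjusted 0.0622). The estimate moved to 0.16 without RBM3KO replicate 1 and to 0.53 without RBM3KO replicate 3, and neither passed (adjusted p = 0.786 and 0.139).

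Insig1 (chromosome 5, 28071363 to 28078662) encodes the protein that retains SCAP and SREBP2 in the endoplasmic reticulum, and is itself a target of SREBP2. It stood at 66.1, 79.4 and 78.9 CPM in WT and at 67.8, 70.3 and 66.8 CPM in RBM3KO. All 3 RBM3KO libraries lay inside the WT range, and Insig1 varied least within RBM3KO of the 9 genes (coefficient of variation 2.64%, against 10.1% in WT). The estimated log2 fold change was -0.13 (SE 0.15, interval -0.47 to 0.20, edgeR adjusted p = 0.836).

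Hmgcs1 (chromosome 13, 119690379 to 119708260) encodes the cytosolic HMG-CoA synthase, an early enzyme of the mevalonate arm. Its levels were 26.8, 31.9 and 26.4 CPM in WT and 28.9, 35.4 and 37.6 CPM in RBM3KO. RBM3KO replicates 2 and 3 were above all WT libraries and replicate 1 was between them. For Hmgcs1 the log2 fold change was 0.26 (SE 0.23, interval -0.24 to 0.76, edgeR adjusted p = 0.754).

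Mvd (chromosome 8, 122433601 to 122443422) encodes the decarboxylase that yields isopentenyl diphosphate, the isoprene unit. It was the 1 gene of the 9 whose groups did not overlap, where 18.9% of all genes tested were separated in that way. The WT libraries held 69.0, 65.5 and 65.4 CPM and the RBM3KO libraries 110.0, 69.6 and 75.6 CPM. The separation from WT was narrow for RBM3KO replicate 2, and replicate 1 stood apart from the other 5 libraries. Its log2 fold change was 0.35 (SE 0.19, interval -0.06 to 0.77, edgeR adjusted p = 0.492). Without RBM3KO replicate 1 it was 0.12, and without RBM3KO replicate 2 it was 0.48.

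Idi1 (chromosome 13, 8885501 to 8892451), which encodes the isomerase of isopentenyl diphosphate, had the lowest level of the 9 and the widest interval. Its raw counts were 139, 163 and 416 in WT and 100, 107 and 85 in RBM3KO, which is 10.3, 9.58 and 16.3 CPM in WT and 6.52, 6.39 and 11.4 CPM in RBM3KO. Replicates 1 and 2 of RBM3KO were below all WT libraries, and replicate 3 was above 2 of them. This gave a log2 fold change of -0.58 (SE 0.43, interval -1.52 to 0.36, edgeR adjusted p = 0.679). The estimate became -0.30 without WT replicate 3 and -0.90 without RBM3KO replicate 3.

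Fdps (chromosome 3, 89093588 to 89101959) encodes farnesyl diphosphate synthase, at the branch between sterols and protein prenylation. It held 205, 241 and 195 CPM in WT and 238, 172 and 151 CPM in RBM3KO. RBM3KO replicates 2 and 3 lay below every WT library and replicate 1 near the top of the WT range. The estimate was -0.19 on the log2 scale (SE 0.16, interval -0.55 to 0.17, edgeR adjusted p = 0.745). It was -0.40 without RBM3KO replicate 1 and -0.06 without RBM3KO replicate 3 (edgeR adjusted p = 0.279 and 0.958). Of its exon bases, 77.4% are shared with Gm43738, an annotated gene on the same strand that has no row in the table, so how reads between the 2 were assigned is uncertain.

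Fdft1 (chromosome 14, 63145150 to 63179578) encodes squalene synthase, the first enzyme committed to sterols. Its levels were 76.8, 102.0 and 97.9 CPM in WT and 119, 86.2 and 82.5 CPM in RBM3KO. RBM3KO replicate 1 was above every WT library and the other 2 were inside the WT range. The genotypes differed by a log2 fold change of 0.06 (SE 0.18, interval -0.33 to 0.45, edgeR adjusted p = 0.954). Exons of Ctsb on the opposite strand share 20.9% of its exon bases, and Smart-seq2 reads carry no strand, so reads of the 2 genes cannot be told apart there.

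Sqle (chromosome 15, 59315077 to 59331192) encodes squalene epoxidase, a flux-controlling step of the sterol arm. The WT libraries held 68.6, 99.6 and 100.4 CPM and the RBM3KO libraries 104, 82.7 and 52.6 CPM. Here RBM3KO replicate 1 was the highest and replicate 3 the lowest of all 6 libraries, so the RBM3KO range enclosed that of WT. The log2 fold change was -0.16 (SE 0.24, interval -0.69 to 0.36, edgeR adjusted p = 0.881).

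Cyp51 (chromosome 5, 4081145 to 4104746) encodes lanosterol 14-alpha-demethylase, the first step after the ring closure. It held 141, 167 and 135 CPM in WT and 203, 167 and 124 CPM in RBM3KO, again with the highest and the lowest value both in RBM3KO. The difference was a log2 fold change of 0.16 (SE 0.17, interval -0.22 to 0.54, edgeR adjusted p = 0.812).

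**Figure D2:**
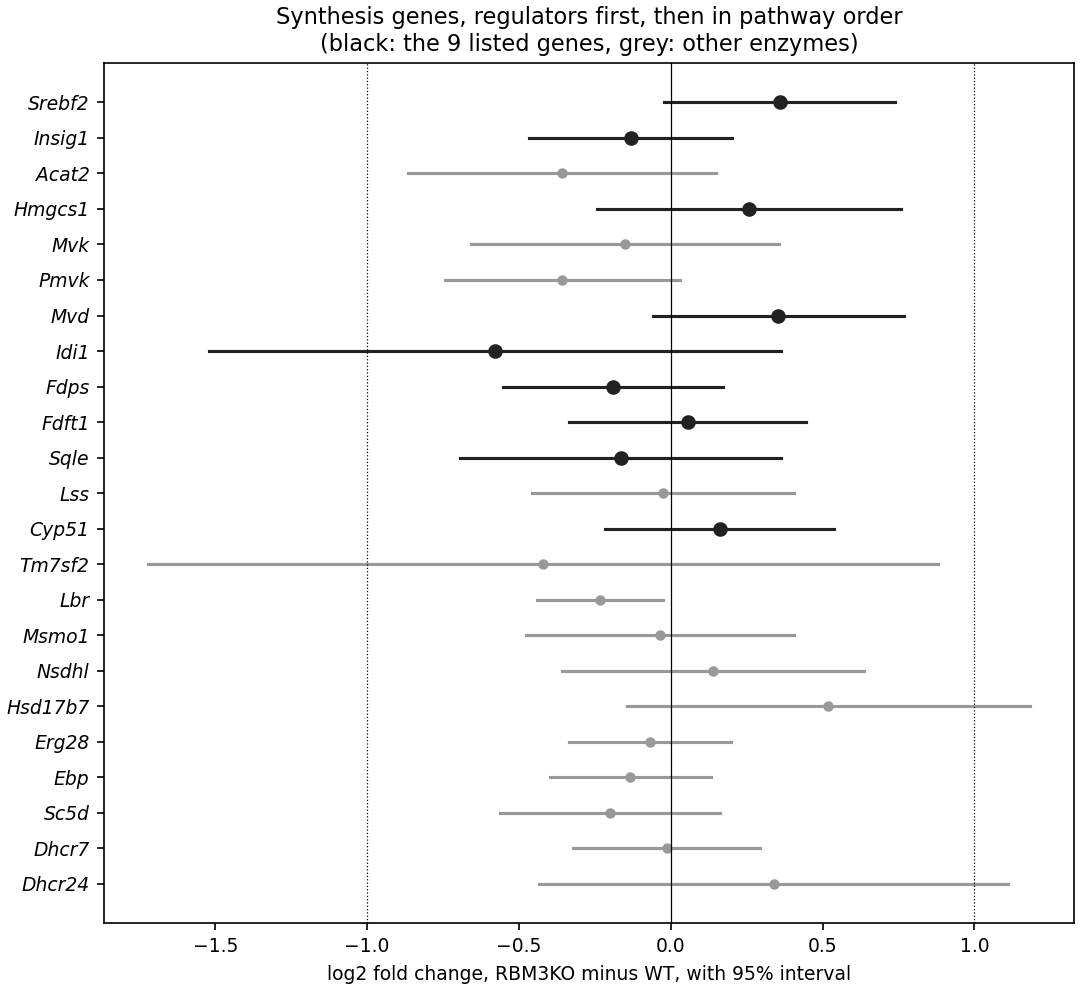
Log2 fold change (RBM3KO minus WT, horizontal axis) with its 95% interval for the 9 genes (black) and 14 of the 15 other synthesis enzymes (grey; 1 is not reported here by name), the regulators first and the enzymes in pathway order, with dotted lines at a doubling and a halving. The intervals of all 9 genes hold 0, and that of Idi1 alone among the 9 crosses a dotted line.

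The intervals set how large a difference these samples leave possible. For 8 of the 9 genes the interval lay inside a 2-fold change in either direction, with bounds between 0.619 and 1.70 times the WT level. Idi1 was the exception, with an interval from 0.348 to 1.29 times WT. A missed threshold in 3 against 3 libraries does not show that the levels were equal, and differences up to these bounds were not excluded by the intervals.

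The RBM3KO libraries varied more than the WT libraries for most of the genes. The coefficient of variation was higher in RBM3KO than in WT for 8 of 9 genes, with Insig1 as the exception, and its median was 11.4% in WT and 24.4% in RBM3KO. Over the 7608 genes tested at a mean of 10 CPM or more, it was higher in RBM3KO for 58.9%, and the medians were 14% and 16.9%. Among the 15 other synthesis enzymes it was higher in RBM3KO for 8, with medians of 13.7% and 13.2%. These counts were made after the values had been seen and were not tested.

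Within RBM3KO, replicates 1 and 3 differed most. RBM3KO replicate 1 held the highest level of all 6 libraries for 5 of the 9 genes (Mvd, Fdft1, Sqle, Cyp51 and Srebf2), against 22% of the 7608 genes. It exceeded RBM3KO replicate 3 for 7 of 9 and for 12 of the 15 other synthesis enzymes, against 51.4% of the 7608, and the median log2 ratio of the pair (of CPM plus 1) was 0.53 for the 9 genes, 0.12 for the 15 other synthesis enzymes and 0.02 for the 7608. Hmgcs1 and Idi1 were the 2 genes with the opposite order. The summed level of the 9 genes was 809, 952 and 851 CPM in WT and 1053, 849.5 and 720.0 CPM in RBM3KO. RBM3KO replicate 3 was also the shallowest library and held the highest summed level of 12 epithelial, stromal and endothelial markers (339 CPM, against 65.4 to 157 CPM in the other 5), most of it the surfactant gene Sftpc (248 CPM). Epcam (11.0 CPM), Cldn5 (10.4 CPM), Sftpb (6.86 CPM) and Col3a1 (4.98 CPM) were also highest in that library, Col3a1 being at 0 in the other 5. Krt8 and Col1a1 were at 0 there and in 4 of the other 5. The remaining markers were not highest there either: Pecam1 stood at 57.6 CPM (62.3 CPM in RBM3KO replicate 2) and Krt18 at 2.42 CPM (3.18 CPM in WT replicate 1). Cdh5 and Scgb1a1 stood at 0.404 CPM each, and Kdr at 0 (5.74 CPM in RBM3KO replicate 1). The nuclear RNA Malat1 was highest in the same library (731 CPM) and did not overlap between the genotypes (206 to 302 CPM in WT, 327 to 731 CPM in RBM3KO). The part of depth, of such cells or of RNA quality in these levels was not tested, beyond thinning all libraries to the depth of the shallowest, after which 0 of 9 genes were called and the median log2 fold change was 0.07.

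**Figure D3:**
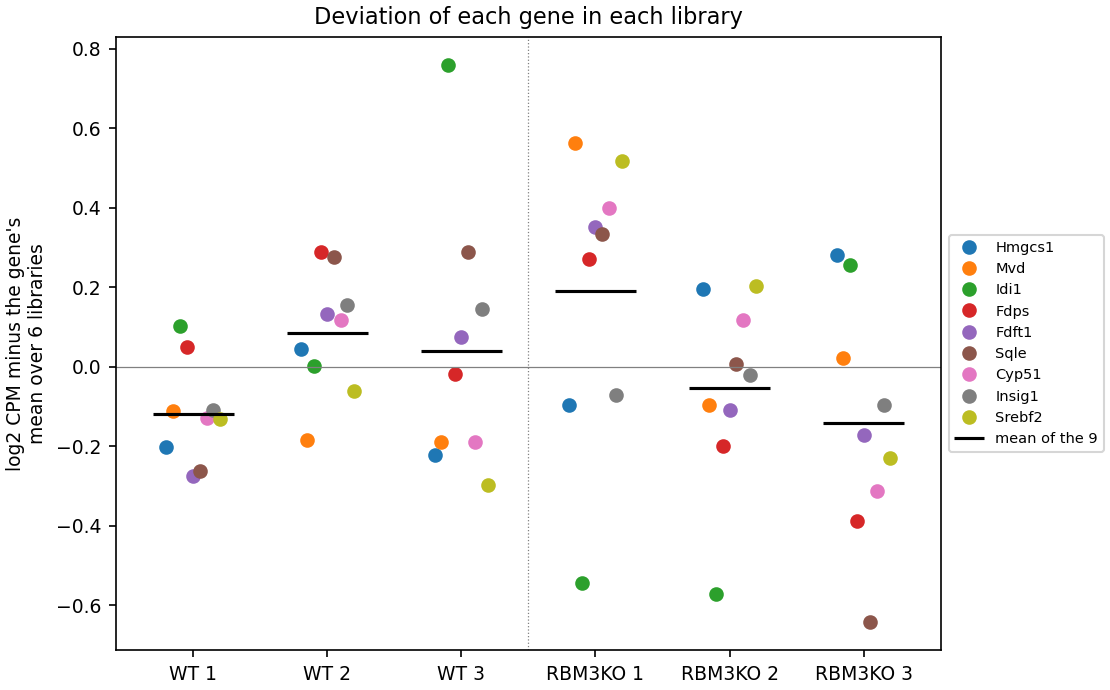
Log2 CPM of each of the 9 genes minus its own mean over the 6 libraries (vertical axis) for each library (horizontal axis), with the mean of the 9 as a black bar. The mean deviation was highest in RBM3KO replicate 1 (0.19) and lowest in RBM3KO replicate 3 (-0.14), and the WT libraries lay between them (-0.12 to 0.09).

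The genes most alike across the 6 libraries were Cyp51 and Srebf2, whose log2 deviations differed by a root mean square of 0.11. The gene least like the rest was Idi1, at 0.43 to 0.72 from each of the other 8. In WT replicate 3, Idi1 was 0.76 above its own mean while Srebf2 was 0.30 below its own.

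Levels were compared between genes only after division by exon length (GENCODE M21), as CPM per kb averaged over the 6 libraries. Fdps led at 138 CPM per kb and did not overlap with the next gene in any library. Mvd (43.2), Cyp51 (39.8), Sqle (30.7), Srebf2 (29.5), Insig1 (26.5) and Fdft1 (25.4 CPM per kb) followed as a group in which the ranges of neighbours overlapped. Hmgcs1 (8.95 CPM per kb) lay below all of these and Idi1 (3.33) below Hmgcs1, both without overlap. The highest was thus 41.4 times the lowest. The levels of Fdps and Fdft1 carry the uncertainty of shared exons given above. Exons on the opposite strand also cover 16% of the exon bases of Hmgcs1 (Gm48342), 10.7% of those of Idi1 (Gm48574) and 4.22% of those of Cyp51 (Akap9).

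**Figure D4:**
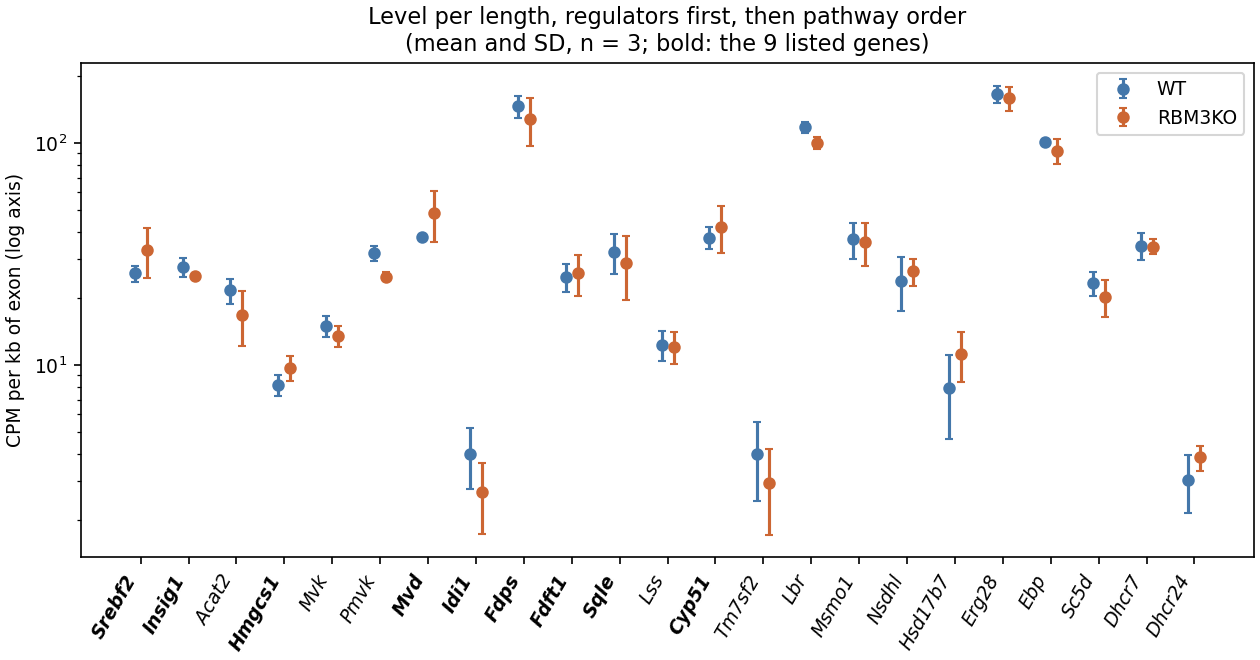
CPM per kb of exon (log axis) of the 9 genes (bold) and 14 of the 15 other synthesis enzymes (1 is not reported here by name) in WT (blue) and RBM3KO (orange), as mean and SD of 3 libraries. Among the 9, Fdps stands highest and Idi1 lowest in both genotypes.

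The other 15 enzymes of the pathway did not pass the test either. Of these, 4 estimates were above 0 and 11 below, with a median log2 fold change of -0.07, and 1 (Lbr) was under an unadjusted p of 0.05. Lbr, a sterol reductase that is also the lamin B receptor of the nuclear envelope, had the highest level in CPM of the 15. It held 441, 407 and 394 CPM in WT and 348, 376 and 332 CPM in RBM3KO (-0.23 on the log2 scale, SE 0.09, edgeR adjusted p = 0.338), with no overlap. Pmvk, encoding phosphomevalonate kinase, stood at 51.7, 53.3 and 59.7 CPM against 44.2, 43.8 and 40.6 CPM (-0.36, SE 0.18, edgeR adjusted p = 0.450), also with no overlap. Erg28, which encodes a scaffold of the C4-demethylation enzymes, had 195 ± 16.9 and 186 ± 22.8 CPM (n = 3). Counting all 24 synthesis genes and regulators together, 9 estimates were above 0 and 15 below.

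Around the synthesis genes, 0 of 53 tested genes of 5 related lists passed. With the 15 enzymes this made 0 of 68, and 11 of the 68 were under an unadjusted p of 0.05, 5 higher and 6 lower, where 12.3% of all genes tested were. DESeq2 also called 0 of the 68. Among 11 genes of SREBP processing and related steps (median log2 fold change -0.03), Mbtps1, the site-1 protease that cuts SREBPs, stood at 99.8, 121 and 95 CPM in WT and 133, 155 and 153 CPM in RBM3KO (0.48, SE 0.14, edgeR adjusted p = 0.148). The 2 groups did not overlap for Mbtps1. Srebf1, which encodes SREBP1, had 181 ± 9.07 and 191 ± 34.8 CPM (n = 3).

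Among 11 tested genes of cholesterol uptake and transport (median 0.08), the lysosomal carrier Npc2 was the highest in CPM, at 605 ± 175 and 737 ± 72.4 CPM (n = 3). Gramd1a, a carrier of cholesterol from the plasma membrane to the endoplasmic reticulum, stood at 190.0, 198 and 227 CPM in WT and 335, 255 and 233 CPM in RBM3KO (0.42, SE 0.14, edgeR adjusted p = 0.228). Stard4, a cytosolic sterol carrier and known SREBP2 target, stood at 41.1, 41.7 and 31.2 CPM against 28.6, 20.4 and 23.2 CPM (-0.66, SE 0.24, edgeR adjusted p = 0.279). Both genes were without overlap between the groups.

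Among 8 tested genes of the LXR response, efflux and esterification (median 0.21), the sterol acyltransferases pointed to opposite sides. Soat1, the main form outside liver and intestine, had 156, 190 and 181 CPM in WT and 205, 204 and 222 CPM in RBM3KO (0.26, SE 0.11, edgeR adjusted p = 0.372). Soat2, at much lower counts, had 13.2, 8.29 and 8.22 CPM against 4.11, 4.00 and 2.69 CPM (-1.45, SE 0.50, edgeR adjusted p = 0.236). Nr1h2, encoding LXR beta, had 119 ± 9.41 and 147 ± 20.4 CPM (n = 3). None of the 3 overlapped between the groups and none passed the test.

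Among 10 tested genes of fatty acid synthesis (median -0.09), the elongase gene Elovl5 had 504 ± 31.2 and 535 ± 62.1 CPM and Acly, which supplies cytosolic acetyl-CoA, 307 ± 41.1 and 282 ± 50.2 CPM (n = 3 each). The desaturase gene Fads1 had 39.0, 36.6 and 37.8 CPM in WT and 26.3, 22.9 and 28.3 CPM in RBM3KO, with no overlap (-0.55, SE 0.22, edgeR adjusted p = 0.317). Fads2 was low, with 95, 16 and 49 counts in WT and 16, 24 and 0 in RBM3KO. In CPM this was 7.02, 0.940 and 1.92 in WT and 1.04, 1.43 and 0 in RBM3KO.

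Among 13 genes of the isoprenoid branch (median 0.05), which use the products of Fdps for prenylation and dolichol, Rabggta, a subunit of the Rab prenyltransferase, had 55.7, 42.5 and 49.9 CPM against 67.5, 59.4 and 75.6 CPM (0.45, SE 0.18, edgeR adjusted p = 0.338). Dhdds, a subunit of the dolichol-making prenyltransferase, had 47.1 ± 3.89 and 34.7 ± 6.78 CPM (-0.44, SE 0.21, edgeR adjusted p = 0.450). The groups did not overlap for either. The prenylation genes Rce1 (108 ± 14.9 and 124 ± 22.2 CPM) and Fnta (108 ± 35.4 and 88.6 ± 16.8 CPM, n = 3 each) overlapped between the groups. Over the 68 genes of all these lists, 16 were without overlap, against 18.9% of all genes tested.

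**Figure D5:**
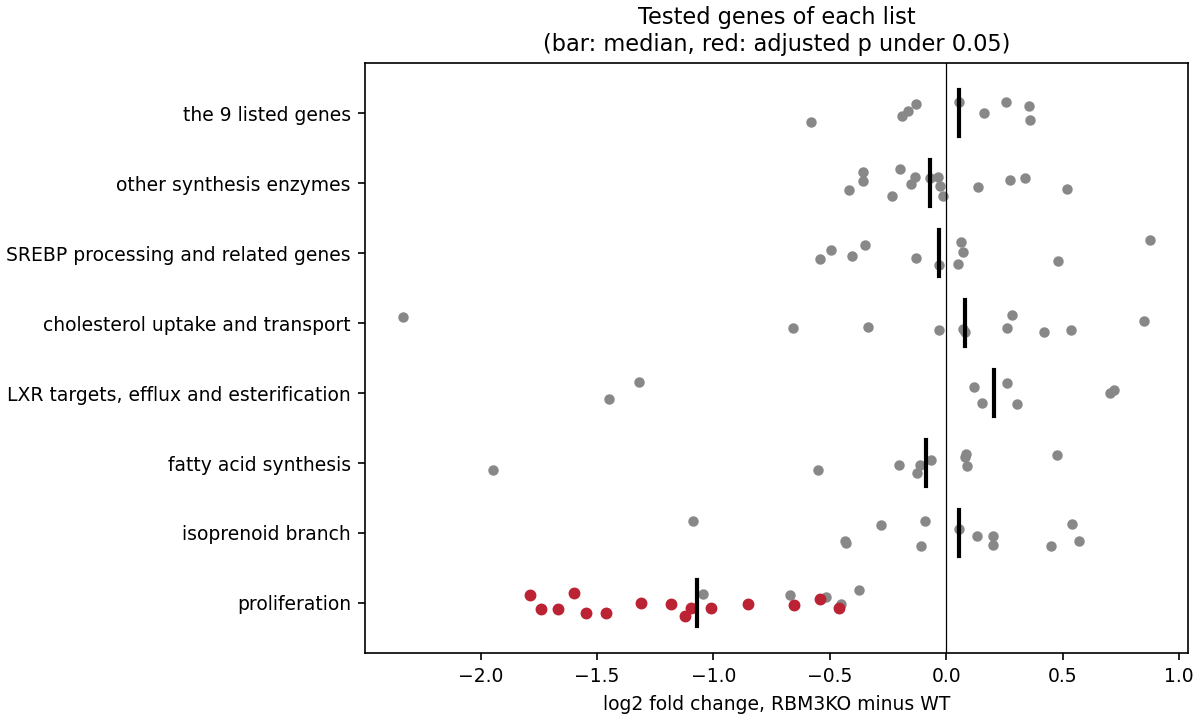
Log2 fold change (RBM3KO minus WT, horizontal axis) of each tested gene in the 9 listed genes, 6 lists of related genes and the proliferation list, with the median as a black bar and genes at an edgeR adjusted p under 0.05 in red. The medians of the 9 genes and of the 6 related lists lie between -0.09 and 0.21. Red points appear only in the proliferation list (15 of 20, all lower, median -1.07), where 1% of all genes tested were called lower.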

How the data were processed

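The values are raw counts of reads for each gene symbol, as deposited, in 1 table with 1 column per library. Tools listed in the submitters' processing notes are featureCounts 1.6.5, STAR 2.6.1c and Bowtie 1.0.0, and the genome build listed is mm10. The annotation, strand setting and read filters remain not given in the sources used here. Smart-seq2 carries no molecular identifiers, so PCR copies are counted. Floors cover counting error only, while the intervals of fold changes include the spread between libraries.

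Genes were filtered with edgeR's filterByExpr (11382 of 14416 kept), scaled by TMM and compared with the robust quasi-likelihood test (edgeR 4.0.16, R 4.3.3), with Benjamini-Hochberg adjustment over all tested genes. The script was tested on simulated data. The SE is the log2 fold change divided by the square root of F. Whether samples are separate animals is not labelled, and a p-value therefore reflects the spread among these libraries alone, which may be technical. Summed levels use CPM on library totals with no TMM factor. Alternatives were DESeq2 1.42.0, limma-voom 3.58.1, RLE scaling, other filters, a non-robust fit, a replicate block, equal depth and leaving out each library. A count of 0 allows 3 counts, which is 0.120 to 0.400 CPM.

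The genes and lists were chosen with earlier results of these data known. Named were the 9 genes and, from each related list without a call, the 2 highest and the 2 with the smallest p. Up to 6 other genes were named for the most similar pattern. Vldlr and 9 listed markers have no row in the table. Gene positions and exon lengths are from GENCODE M21. Some genes of the related lists are counted in the totals but not reported here by name.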

Additional observations from a re-analysis of the deposited data

How the results depend on the processing

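In all 14 alternatives 0 of the 9 genes and 0 of the other pathway genes were called, and the smallest adjusted p of any of the 9 was 0.139, for Srebf2 without RBM3KO replicate 3. The median log2 fold change of the 9 ran from -0.13 to 0.15 when each library was left out in turn and from 0.04 to 0.07 in the other alternatives. The estimates of Hmgcs1, Mvd, Idi1, Fdps, Insig1 and Srebf2 kept their sign in all 14. Reversed estimates were those of Fdft1 without WT replicate 1 (-0.06) and without RBM3KO replicate 1 (-0.13), Cyp51 without RBM3KO replicate 1 (-0.018) and Sqle without RBM3KO replicate 3 (0.057). At an unadjusted p under 0.05, 1 of the 9 (Srebf2) passed with DESeq2, limma-voom, no filter, the stricter filter (10 CPM in 3 libraries) and the replicate block, and Fdps, Mvd, or Cyp51 and Srebf2 passed without RBM3KO replicates 1, 2 and 3. Over all genes 142 were called, 414 with DESeq2, and 12 to 99 without a library. With the replicate number as a block, 0 of the 9 were called and the median was 0.04. The labels do not say whether equal numbers mark paired samples. Deviations of same-numbered libraries correlated at 0.06, 0.06 and 0.005 over genes, so little shared variation was seen. With 3 libraries per group this cannot exclude that samples were matched. With each library left out in turn, the estimate of Fdft1 ran from -0.13 to 0.15, that of Sqle from -0.40 to 0.057 and that of Cyp51 from -0.018 to 0.33. The cause of these reversals was not tested.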

Other observations

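Outside the lists, the genes at a mean of 10 CPM or more whose pattern over the 6 libraries was most like the mean of the 9 were Rnf123, Cops7a, Rbm42, Aaas, Uqcrfs1 and Anapc2, at ranks 1 to 5 and 7. The gene at rank 6 has a systematic name of the kind given to predicted genes and is not named. Likeness was the root mean square difference of log2 deviations, which was 0.03 for Rnf123 and 0.04 to 0.06 for the other 5. Rnf123 stood at 118, 133 and 128 CPM in WT and at 141, 122 and 109 CPM in RBM3KO. The mean of the 9 varied little over the libraries, so genes that vary little rank high on this measure. Of the 9 themselves, Fdft1 came closest to their mean (rank 152 of 7608) and Idi1 was furthest from it (rank 6473).

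On library totals, without the TMM factors, the 15 other synthesis enzymes summed to 1481, 1561 and 1454 CPM in WT. In RBM3KO they summed to 1387, 1422 and 1263 CPM, without overlap. Dividing each sum by its TMM factor (1.02 in WT replicate 3, 0.990 in RBM3KO replicate 2) makes the groups overlap. The separation thus depends on the scaling. Lbr was the largest term of the sum. The 9 genes themselves overlapped in their sum.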
